A study of Mus musculus with 6 samples.

Results

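The pyruvate dehydrogenase complex and its kinases were examined in the hearts of male mouse pups that expressed the human SRY gene outside its usual tissue. The 8 genes were Pdk1, Pdk2, Pdk3 and Pdk4, which encode the kinases, and Pdha1, Pdhb, Dlat and Pdhx, which encode subunits of the complex. Every probe carrying one of these gene symbols was taken, which gave 9 probes of the 25697 on the array, since Pdhb had a pair of probes and each other gene had 1. Of these, 8 probes of 7 genes were detected often enough to be tested, among 12970 tested probes in all, and the Pdhx probe was not.

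Total heart RNA from 3 hSRY-ON and 3 hSRY-OFF mice of strain FVB, given as FVB/N in the methods, at postnatal day 6 (P6) was hybridized to 6 Illumina MouseRef-8 arrays, a bead array with 1 colour. The hSRY-ON pups carried the Signalox-hSRY transgene, a single copy at the H11 locus driven by the ubiquitous CAG promoter. Cre recombinase carried over in the oocytes of Ddx4-Cre mothers had removed the DsRed2 cassette in the early embryo and so switched on FLAG-tagged human SRY together with EGFP. The methods chose hSRY-ON pups that had not inherited Ddx4-Cre itself. The methods define hSRY-OFF as mice whose Signalox-hSRY transgene was not recombined, while elsewhere the study describes its control littermates as carrying Ddx4-Cre alone or no transgene, so the exact genotype of the 3 hSRY-OFF hearts is uncertain. The model came from 1 transgene insertion. The hSRY-ON pups were also growth retarded and sick, and the necropsy shown, of an older pup, found a lack of milk in the stomach. The study also describes white patches in some hSRY-ON hearts, shown at P6, and areas positive for TUNEL, a stain for dying cells. Whether the hearts used here had such patches is not stated. The effects of SRY in the heart therefore cannot be told apart from those of sickness, poor feeding and local damage. The array held no probe that was used here for the human transgene, and the labels were not checked by it. The study describes biological triplicates.

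Pyruvate dehydrogenase stands between glycolysis and the citric acid cycle. It converts pyruvate, brought into the mitochondrion by the pyruvate carrier, to acetyl-CoA, with Pdha1 and Pdhb forming the decarboxylating E1 enzyme, Dlat the E2 acetyltransferase core, Dld the E3 enzyme that reoxidizes the lipoyl groups, and Pdhx a protein that binds E3 to the core. The kinases phosphorylate Pdha1 and switch the complex off, and the phosphatases Pdp1 and Pdp2 remove the phosphate and switch it on. Pdk4 and Pdk2 are the kinases most tied to fasting and fatty acid use in heart and skeletal muscle, whereas Pdk1 is known as a target of the hypoxia-inducible factor HIF. The heart turns from glucose and lactate towards fatty acids in the days after birth. These arrays measured RNA only, and neither kinase activity nor phosphorylation of the complex was measured.

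Of the kinases, Pdk2 and Pdk4 fell and Pdk1 and Pdk3 were not called, and the regions before their RefSeq starts are shown so that these genes can be set side by side. Each is the 250 bases before a transcript start that RefSeq annotates in GRCm38.p6, written 5′ to 3′ on the gene's strand, and the array files name no genome build. The Pdk1 window runs 9 bases into the annotated span of the gene, and the other 3 windows end at its edge. Capitals mark the letters ACGTG, a form of the core of the hypoxia response element, on either strand. The other form of that core, GCGTG, was neither counted nor marked, and it can be read in the Pdk4, Pdk1 and Pdk3 windows. Pdk4 is at chr6:5496279-5496528 on the minus strand, Pdk2 at chr11:95041372-95041621 on the minus strand, Pdk1 at chr2:71872974-71873223 on the plus strand, and Pdk3 at chrX:93832151-93832400 on the minus strand.
Pdk4: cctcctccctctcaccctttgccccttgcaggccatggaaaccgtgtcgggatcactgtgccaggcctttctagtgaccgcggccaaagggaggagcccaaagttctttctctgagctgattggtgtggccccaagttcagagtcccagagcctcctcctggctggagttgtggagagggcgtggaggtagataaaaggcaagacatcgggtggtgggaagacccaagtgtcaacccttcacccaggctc
Pdk2: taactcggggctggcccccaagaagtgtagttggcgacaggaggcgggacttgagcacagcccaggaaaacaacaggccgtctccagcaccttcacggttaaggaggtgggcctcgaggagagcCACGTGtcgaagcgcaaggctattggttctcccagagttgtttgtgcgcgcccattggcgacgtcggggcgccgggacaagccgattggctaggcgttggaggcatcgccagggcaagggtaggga
Pdk1: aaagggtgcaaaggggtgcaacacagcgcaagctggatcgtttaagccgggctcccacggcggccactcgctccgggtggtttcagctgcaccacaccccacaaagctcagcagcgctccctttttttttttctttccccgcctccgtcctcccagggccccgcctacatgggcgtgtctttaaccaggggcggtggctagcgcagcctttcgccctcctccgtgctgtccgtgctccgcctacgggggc
Pdk3: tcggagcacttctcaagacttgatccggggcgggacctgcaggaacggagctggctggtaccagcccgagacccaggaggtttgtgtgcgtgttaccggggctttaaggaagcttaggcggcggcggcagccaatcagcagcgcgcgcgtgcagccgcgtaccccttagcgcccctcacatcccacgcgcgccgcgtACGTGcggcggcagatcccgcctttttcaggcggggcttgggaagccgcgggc
ACGTG stood at 1 place in the Pdk2 window, where CACGTG reads the same on both strands, and at 1 in the Pdk3 window, and in neither the Pdk4 nor the Pdk1 window. It was found in 3 of the 10 windows of the member genes, where Pdk1 and Pdk2 each have a further annotated start, and in 16.6% of all 32851 RefSeq windows of this length. AACAAT, a core of the sites bound by SRY and SOX proteins, was in 0 of the 10 windows and in 9.42% of all windows. The nuclear receptor half-site AGGTCA was also in 0 of the 10 windows, against 14.0% of all, as was the FoxO motif TGTTTAC, against 3.17%. The glucocorticoid receptor half-site AGAACA was in 1 of the 10, the window of the further start of Pdk1, against 16.1% of all. Both strands were searched for every motif. The missing letters describe these windows only, and sites elsewhere were not searched.

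Heart identity and array quality were examined before the members. Between 47.2% and 51.3% of probes were detected per array, at a detection p under 0.05, and hSRY-OFF replicate 3 had the lowest mean intensity, 631 against 723 to 939 on the others. Of 12 cardiomyocyte markers tested, 1 was up-regulated and 5 were down-regulated in hSRY-ON hearts. Myh7 was the one that rose (log2 fold change 2.94 ± 0.18, SE, limma adjusted p = 8.25e-05). Those that fell were Myh6 (-0.51), Tnni3 (-1.13), Ryr2 (-1.09), Pln (-1.47) and Mybpc3 (-0.51). The summed normalized intensity of the list lay at 242100 to 255400 for the controls and 231600 to 247800 for the hSRY-ON hearts. Myl2, Myl3 and Nppa, at 15.25 to 15.42 in every heart and near the top of the range, weighed heavily in these sums. The 6 macrophage markers had sums of 1304 to 1460 among controls and of 2453 to 2916 among hSRY-ON hearts, with 4 of 6 up-regulated. The 6 smooth muscle markers summed to 27110 to 32640 and 39780 to 43610, with 2 of 5 tested up-regulated (Acta2 and Tagln) but a median log2 fold change of -0.42 over the 5. The 7 hepatocyte markers summed to 260 to 305 and 1408 to 3023, although the Alb, Fgb and Serpina1a probes used were detected on no array. Only 2 of the 7 were tested, Ahsg and Ttr, and Ttr passed the detection filter through the hSRY-ON hearts alone. Ahsg was the brightest of them, with an intensity of 305 to 385 in controls and 1041 to 2749 with SRY on. Skeletal muscle markers, 8 with a probe, had sums of 513 to 656 among controls against 227 to 307 with SRY on, with 3 of 4 tested down-regulated. Of these, Pvalb passed the detection filter through the hSRY-OFF hearts alone, and without it 2 of 3 tested were down-regulated. The 7 fat markers had overlapping sums of 1833 to 2610 and 1073 to 3630, but 2 of 4 tested were up-regulated, Ucp1 by 3.67 and Adipoq by 1.48 on the log2 scale, and the median of the 4 was 1.37. Ucp1 overlapped between the groups, with hSRY-OFF replicate 3 at 8.88 and hSRY-ON replicate 2 at 8.80, and was detected in 1 hSRY-OFF heart. Cidea was lower (-1.05 ± 0.37, SE, limma adjusted p = 0.0691) and Cfd higher (1.26 ± 0.46, adjusted p = 0.0818), and neither was called. The endothelial, fibroblast, erythroid and thymocyte sums overlapped between the groups, although some of their markers were called. Of 7 tested endothelial markers, 2 rose (Emcn and Eng) and 2 fell (Cdh5 and Tek). Of 7 tested fibroblast markers 1 rose (Tcf21), of 6 erythroid markers 1 fell (Hbb-b1, by 1.29), and of 2 thymocyte markers 0 were called. Most of the erythroid sum was Hba-a1, which read 15.40 to 15.49 on every array. One array stood apart in the lung epithelium list: Scgb1a1, the club cell secretory protein, read an intensity of 12500 in hSRY-ON replicate 1 and 137 to 268 in the other hearts. The part of these cell types in the results below was not tested, and in bulk hearts fewer cells of a type cannot be told apart from less RNA per cell.

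Among the 8 tested member probes, 5 were down-regulated and 0 up-regulated in hSRY-ON hearts at an adjusted p under 0.05 in limma with Benjamini-Hochberg adjustment over all tested probes. Across the array, 27.5% of tested probes were called in either direction and 13.7% were called lower. No further member probe was higher at an unadjusted p under 0.05 either. The groups did not overlap for 6 of the 8 probes, against 45.2% of all tested probes. The median log2 fold change of the 8 probes, hSRY-ON minus hSRY-OFF, was -0.74, against -0.00 over all tested probes. Both Pdhb probes enter each of these figures, so that gene counts more than once in them. With 3 hearts in each group, an exact permutation test of a single probe cannot give a p below 0.1, so the calls rest on the fit across all probes.

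**Figure D1:**
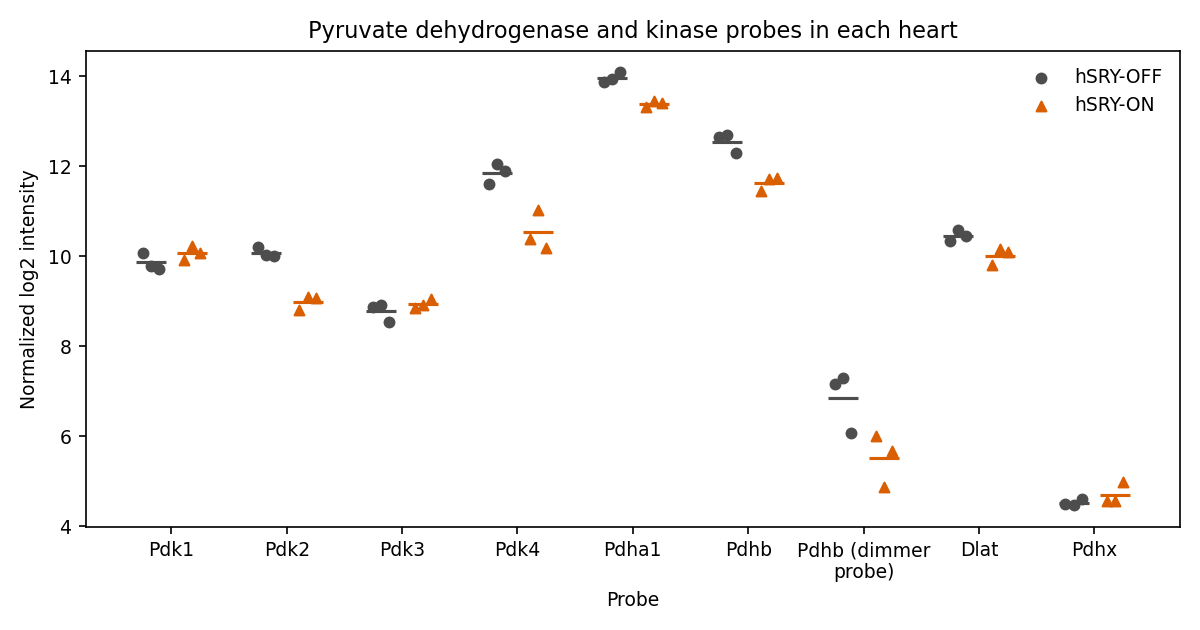
Normalized log2 intensity (y axis) of the 9 probes (x axis) in each of 3 hSRY-OFF hearts (circles) and 3 hSRY-ON hearts (triangles), with group means as lines and replicates 1 to 3 from left to right. The groups are apart for Pdk2, Pdk4, Pdha1, Dlat and both Pdhb probes, and they overlap for Pdk1, Pdk3 and the undetected Pdhx. Heights are not comparable between probes.

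Pdk4, the kinase induced by fasting, had the lowest log2 fold change of the 4 kinases. Its normalized log2 intensity was 11.61, 12.06 and 11.89 in hSRY-OFF replicates 1 to 3 and 10.39, 11.03 and 10.19 in hSRY-ON replicates 1 to 3. Every hSRY-ON heart lay below every hSRY-OFF heart, and hSRY-ON replicate 2 lay closest to the controls. The log2 fold change was -1.32 ± 0.23 (SE, n = 3 per group, limma adjusted p = 0.0055), or 2.49-fold lower. The spread among hSRY-ON hearts was an SD of 0.43, against 0.23 among hSRY-OFF hearts.

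Pdk2, the most widely expressed of the kinases, read 10.21, 10.02 and 10.00 in the hSRY-OFF hearts and 8.80, 9.09 and 9.07 in the hSRY-ON hearts. The groups were apart by more than the whole range within either. The log2 fold change was -1.09 ± 0.13 (SE, n = 3 per group, limma adjusted p = 0.00133), or 2.13-fold lower. Of all tested probes, 3.71% had a lower log2 fold change than Pdk2 and 2.21% a lower one than Pdk4.

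Pdk1, the kinase known as a HIF target, read 10.07, 9.79 and 9.72 in the hSRY-OFF hearts and 9.92, 10.23 and 10.08 in the hSRY-ON hearts. The groups overlapped, with hSRY-OFF replicate 1 above hSRY-ON replicate 1. The log2 difference was 0.21 ± 0.15 (SE, 95% interval -0.13 to 0.55, limma adjusted p = 0.321). The interval therefore excludes a fall of the size seen for Pdk2, but not a rise of up to 0.55.

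Pdk3, a kinase best known from testis, brain and kidney, read 8.87, 8.92 and 8.54 in the hSRY-OFF hearts and 8.85, 8.91 and 9.05 in the hSRY-ON hearts. Again the groups overlapped, and hSRY-OFF replicate 3 was the lowest heart. The log2 difference was 0.16 ± 0.14 (SE, 95% interval -0.17 to 0.49, limma adjusted p = 0.44).

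Whether the kinases differed in their change was examined by subtracting the log2 value of a kinase from that of another in each heart, over 6 pairs. The mean of Pdk1 less Pdk2 was 1.30 log2 units higher in hSRY-ON than in hSRY-OFF hearts, and that of Pdk1 less Pdk4 was 1.53 higher. For Pdk3 less Pdk4 the difference was 1.48, and for Pdk2 less Pdk3 it was -1.25. In each of these 4 pairs the groups did not overlap, and the exact two-sided permutation p was 0.1, the smallest that 3 against 3 can give (0.15 after Benjamini-Hochberg adjustment over the 6 pairs). Pdk2 less Pdk4 gave 0.23 with overlapping groups (exact permutation p = 0.6, adjusted p = 0.72), and Pdk1 less Pdk3 gave 0.05 (exact permutation p = 0.8, adjusted p = 0.8). No pair could pass a threshold of 0.05 in this design.

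**Figure D2:**
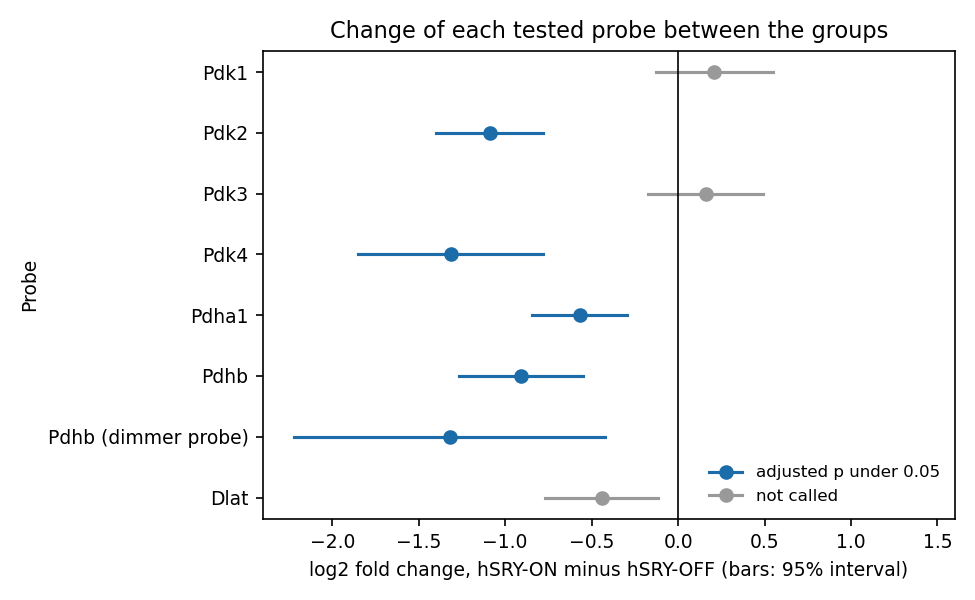
Log2 fold change (x axis, hSRY-ON minus hSRY-OFF, 3 hearts each) of the 8 tested probes (y axis), with bars for the 95% interval of the limma fit. Intervals of Pdk1 and Pdk3 span 0, those of Pdk2 and Pdk4 lie at or below -0.78, and that of Dlat ends at -0.12 although its adjusted p was 0.0519.

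Both E1 subunits were down-regulated. Pdha1, the E1 subunit that carries the sites phosphorylated by the kinases, read 13.87, 13.93 and 14.09 in the hSRY-OFF hearts and 13.32, 13.46 and 13.40 in the hSRY-ON hearts. The groups were apart, with a spread within either group well below the gap between their means. The log2 fold change was -0.57 ± 0.12 (SE, n = 3 per group, limma adjusted p = 0.011), or 1.48-fold lower.

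Pdhb, the other E1 subunit, had a brighter probe that read 12.64, 12.70 and 12.30 in the hSRY-OFF hearts and 11.46, 11.72 and 11.73 in the hSRY-ON hearts. All hSRY-ON hearts were lower. The log2 fold change was -0.91 ± 0.15 (SE, n = 3 per group, limma adjusted p = 0.00472), or 1.88-fold lower. A dimmer Pdhb probe was detected in 3 hSRY-OFF and 2 hSRY-ON hearts.

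The dimmer Pdhb probe read 7.15, 7.30 and 6.07 in the hSRY-OFF hearts and 6.01, 4.88 and 5.67 in the hSRY-ON hearts, and hSRY-OFF replicate 3 lay only just above hSRY-ON replicate 1. It changed in the same direction as the brighter probe, by -1.32 ± 0.39 (SE, limma adjusted p = 0.0395). That call was lost under 7 of the 16 alternatives in which the probe was tested, among them those without hSRY-OFF replicate 1 or 2 or without hSRY-ON replicate 2 or 3, where the adjusted p reached 0.12.

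Dlat, the E2 core, read 10.35, 10.57 and 10.45 in the hSRY-OFF hearts and 9.80, 10.15 and 10.09 in the hSRY-ON hearts. The groups did not overlap, but the log2 difference of -0.44 ± 0.14 (SE, 95% interval -0.77 to -0.12) had a limma adjusted p of 0.0519 and was not called. It was called under 6 of 17 alternatives. Pdhx, which binds E3 to the core, had a probe that was detected on 0 of the 6 arrays, with intensities of 132 to 155 in the range of undetected probes, so its level in the heart was not measured by this probe.

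**Figure D3:**
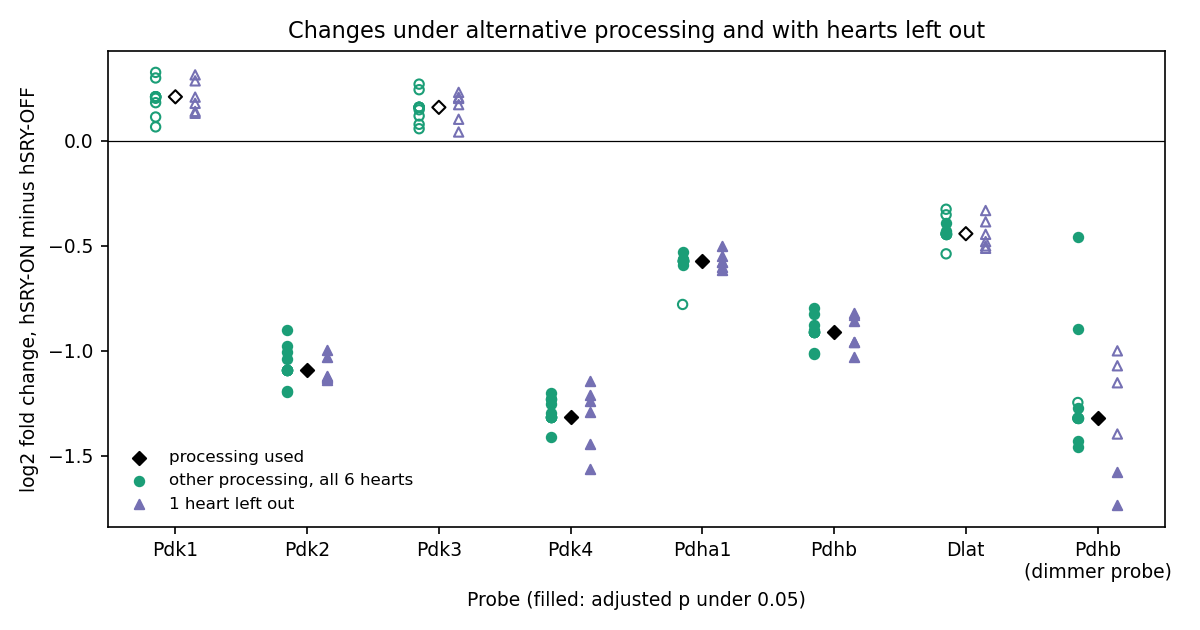
Log2 fold change (y axis, hSRY-ON minus hSRY-OFF) of the 8 tested probes (x axis) as processed here (diamonds), under other processing of all 6 hearts (circles) and with 1 heart left out (triangles); filled symbols have an adjusted p under 0.05. Pdk2, Pdk4 and the brighter Pdhb probe were called in every setting drawn, Pdha1 in all but 1, and Pdk1 and Pdk3 in none.

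The falls did not rest on the heart with high Scgb1a1. Without hSRY-ON replicate 1, the log2 fold change was -0.998 for Pdk2, -1.24 for Pdk4, -0.55 for Pdha1 and -0.82 for the brighter Pdhb probe, each still called by limma at adjusted p of 0.0425 or lower. With any single heart left out, Pdk2 lay between -1.14 and -0.998 and Pdk4 between -1.56 and -1.15.

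The remaining genes of the complex moved in both directions. Dld, the E3 enzyme, was down-regulated (log2 fold change -0.93 ± 0.27, SE, limma adjusted p = 0.0389), from 6.71 ± 0.57 to 5.78 ± 0.18 (SD, n = 3), a call lost under 8 of 17 alternatives, among them every fit without a heart other than hSRY-OFF replicate 3. The log2 fold change of Dld was -0.61 without hSRY-OFF replicate 2 and -0.33 without background correction. Pdp1, the phosphatase that is stimulated by calcium and abundant in muscle, was down-regulated by -1.28 ± 0.15 (adjusted p = 0.0011), from 8.77 ± 0.07 to 7.49 ± 0.24, and stayed called under all 17. Pdp2, the insulin-responsive phosphatase, listed under an older symbol, was up-regulated by 1.15 ± 0.26 (adjusted p = 0.0151), from 8.53 ± 0.20 to 9.69 ± 0.53. Its adjusted p rose to 0.0521 without hSRY-OFF replicate 1 and 0.0524 without hSRY-OFF replicate 2. Another Pdp2 probe was also called higher (1.21 ± 0.25, SE, limma adjusted p = 0.0105). Pdpr, a regulator of the phosphatase, and Pdha2, the testis form of Pdha1, did not pass the detection filter.

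Around these members, lists of genes were described by their counts beside the 1437 genes up-regulated and 1341 down-regulated among 9660 tested genes with 1 probe each, whose median log2 fold change was 0.00. Of 12 tested genes of pyruvate transport and of pyruvate and acetyl-CoA enzymes, 7 fell and 1 rose, with a median of -0.93. Mpc2, a subunit of the mitochondrial pyruvate carrier, fell by 1.24 on the log2 scale (SE 0.13, limma adjusted p = 0.000801). The largest falls were those of Acss1, the mitochondrial acetyl-CoA synthetase, at -2.01 ± 0.25, and Gpt, an alanine aminotransferase that makes pyruvate from alanine, at -1.77 ± 0.13. The gene that rose was Slc16a3, a lactate exporter, whose brighter probe was detected in 3 hSRY-ON and 0 hSRY-OFF hearts and was at least 1.48-fold higher, a bound taken against the lowest signal detected on each array (limma adjusted p = 0.0028). That probe passed the detection filter through the hSRY-ON hearts alone, so it had to differ, and without it 7 of 11 tested genes fell and 0 rose. A dimmer Slc16a3 probe was not called (0.07 ± 0.20, SE, adjusted p = 0.832). Ldha, which interconverts pyruvate and lactate, was not called (-0.13 ± 0.12, adjusted p = 0.456). Mpc1 and Ldhb had no probe under the names searched.

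Of 14 tested genes of the sister 2-oxoacid dehydrogenases and their lipoate and thiamine cofactors, 6 fell and 0 rose in limma, with a median of -0.38, and at an unadjusted p under 0.05 the counts were 7 and 0. Ogdh, the E1 enzyme of 2-oxoglutarate dehydrogenase in the citric acid cycle, fell by 1.06 (SE 0.14, adjusted p = 0.00163). Ppm1k, the phosphatase of the branched-chain complex, fell by 0.96 (SE 0.21, adjusted p = 0.0126).

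Among 19 tested regulators known to act on the Pdk genes, 5 fell and 0 rose in limma, with a median of -0.24, and at an unadjusted p under 0.05 the counts were 6 and 0. Of the 5, Rxrg, Ppara and Akt2 passed the detection filter through the hSRY-OFF hearts alone. Among the other 16 tested regulators 2 fell, beside 1341 of 9660 over all tested genes. Rxrg, a retinoid X receptor that pairs with PPARs, was detected in 3 hSRY-OFF and 0 hSRY-ON hearts and was at least 7.22-fold lower (adjusted p = 2.49e-05). Ppargc1b, a coactivator of mitochondrial genes, fell by 1.35 (SE 0.21, adjusted p = 0.00365), and Esrra, the estrogen-related receptor that works with such coactivators, fell by 0.90 (SE 0.13, adjusted p = 0.00271). Ppara, the receptor for fatty acids that drives Pdk4, was detected in no hSRY-ON heart and was at least 1.36-fold lower (adjusted p = 0.0104), a call lost without background correction (-0.21, adjusted p = 0.0712). Its coactivator Ppargc1a was not called (-0.63 ± 0.34, adjusted p = 0.209), nor were Hif1a (-0.24 ± 0.21, adjusted p = 0.439) and Foxo1 (0.06 ± 0.13, adjusted p = 0.768). Without hSRY-ON replicate 1 Ppargc1a read -0.27 and Hif1a -0.035. Esrrg and the glucocorticoid receptor gene Nr3c1 did not pass the detection filter. Taking the genes undetected in a group at their bounds left the medians of these lists the same.

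Genes known to respond to the same signals as Pdk4 or Pdk1 did not share a direction across lists. Of 15 tested PPAR targets, to which Pdk4 belongs by its known biology, 9 fell and 1 rose, with a median of -1.09. Decr1, an enzyme of unsaturated fatty acid oxidation, fell by 1.83 (SE 0.13, adjusted p = 0.00019), and Cpt1b, the muscle carnitine palmitoyltransferase, fell by 1.501 (SE 0.21, adjusted p = 0.00203). Another Cpt1b probe was also called lower (-1.50 ± 0.15, SE, adjusted p = 0.000681). Angptl4, a secreted lipase inhibitor, rose by 0.67 on the log2 scale (SE 0.20, adjusted p = 0.0395), a call lost under 8 of 17 alternatives, among them every fit without a heart other than hSRY-ON replicate 3. Of 14 tested glucocorticoid and FoxO targets, signals that are also known to raise Pdk4, 7 rose and 1 fell, with a median of 0.77. Fkbp5, a glucocorticoid-induced chaperone, rose by 2.14 (SE 0.31, adjusted p = 0.00244) and the metallothionein Mt2 by 1.71 (SE 0.34, adjusted p = 0.0091). Trim63, a muscle ubiquitin ligase, fell by 1.79 (SE 0.19, adjusted p = 0.000815), as did Pdk4. Of 20 tested HIF targets, 7 rose and 2 fell, with a median of -0.12, and without Slc16a3, which this list shares, 6 of 19 rose. The glycolytic enzyme Aldoc rose by 4.18 (SE 0.17, adjusted p = 2.49e-05) and the glucose transporter Slc2a1 by 1.27 (SE 0.28, adjusted p = 0.0129), while the growth factor Vegfa fell by 1.24 (SE 0.25, adjusted p = 0.00969) and Aldoa, another aldolase, fell by 0.67 (SE 0.15, adjusted p = 0.013). Another Vegfa probe was not called (-0.44 ± 0.18, SE, adjusted p = 0.113). Without hSRY-OFF replicate 1 or 2 Aldoa was not called, and 1 HIF target was then called lower.

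**Figure D4:**
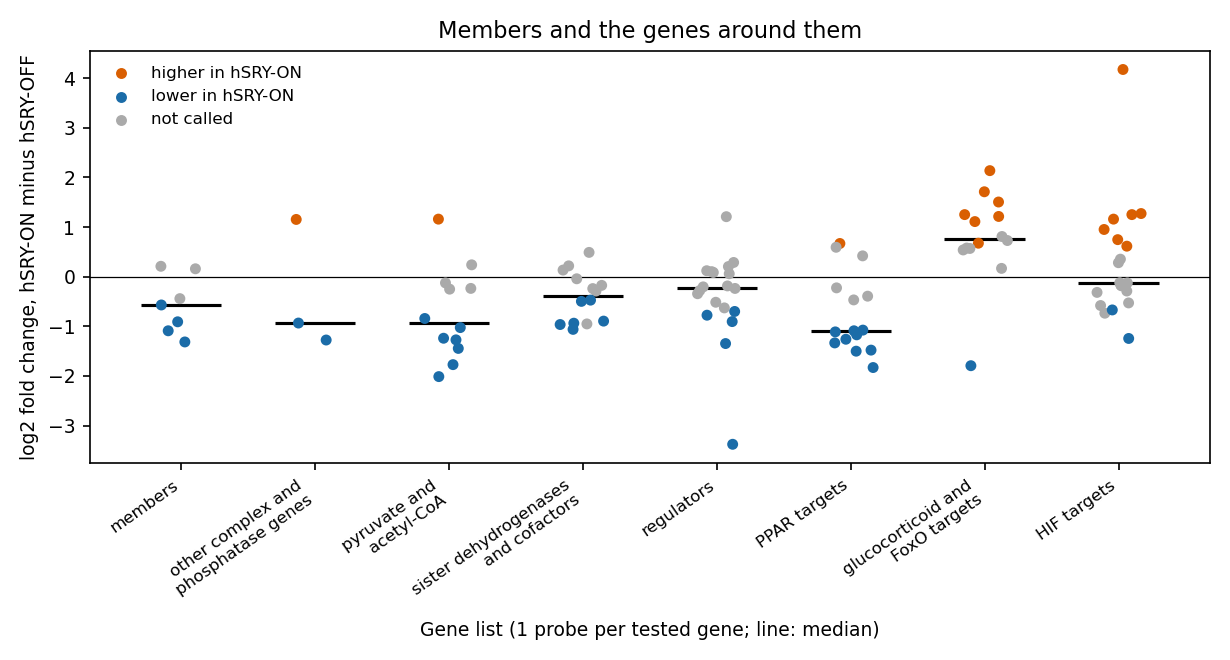
Log2 fold change (y axis, hSRY-ON minus hSRY-OFF) of each tested gene, 1 probe per gene, in the members and 7 gene lists (x axis), coloured by its limma call, with the list median as a line. The PPAR targets lie mostly below 0 (9 of 15 called lower) and the glucocorticoid and FoxO targets mostly above (7 of 14 called higher); the line of the members is the median over 7 genes, not over 8 probes.

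For each member that was called, the 3 genes with the most similar profile over the 6 arrays were found by the root mean square difference of mean-centred log2 values. Nearest to Pdk4 was Ucp3, an uncoupling protein of muscle mitochondria, at 0.122 log2 units, followed by Il2rg at 0.149 and Atg4d at 0.150. Nearest to Pdk2 were Arhgef15 at 0.0591, D330017J20Rik at 0.0650 and Mipep, a mitochondrial peptidase, at 0.0668. Nearest to Pdhb was 9530096D07Rik at 0.0373, then Pcdh1 at 0.0524 and Ndufs3, a subunit of respiratory complex I, at 0.0611. Near to Pdha1 were 1190017O12Rik at 0.0454 and Mrps9, a mitochondrial ribosomal protein, at 0.0469. These members were called lower, and the genes named here were chosen by similarity to them over the same 6 arrays, so they had to be lower too. Their log2 differences, hSRY-ON minus hSRY-OFF, lay between -1.26 and -0.526.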

How the data were processed

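The values were the deposited AVG_Signal intensity of each probe, not normalized by the authors, and the deposited detection p-value per array. The methods name TCC, a package for counts, with no settings, and the submitters' processing notes name limma. Here limma 3.58.1 in R 4.3.3 corrected the background from the detection p-values (normal-exponential, offset 16), applied quantile normalization between arrays, and values were put on the log2 scale. Testing was limited to probes with a detection p under 0.05 in 3 or more of the 6 hearts. lmFit and eBayes compared the groups, two-sided, with Benjamini-Hochberg adjustment over all tested probes and a threshold of 0.05. For a gene with several probes, the brightest tested probe stood for it in the lists, and the same probe was kept under the alternatives.

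No control-probe table was used. The number of arrays limits the precision. No arrays held identical values. On simulated arrays of 12645 tested probes, 53 of 87 probes given a log2 change of 1 and 91 of 110 given a change of 2 were recovered with the correct sign, while 10 probes simulated without change passed the threshold. Far fewer probes were changed there than the 27.5% called in the hearts. Background noise was also added to spreads already taken from the hearts. These rates therefore do not give the share of true changes recovered in the hearts.

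Listed genes without a probe under their current symbol were matched through RefSeq synonyms. The members and lists were chosen with earlier results of these data known. Named were all member probes, in each list the called genes with the 2 largest rises and 2 largest falls, all genes of the complex list, a chosen set of regulators and pyruvate genes, and the 3 nearest genes of each called member, of which 1 is not reported here. Promoter windows came from RefSeq (GRCm38.p6), and Python 3.11.15 with matplotlib 3.10.9 drew the plots. The 17 alternatives varied the background correction, normalization, probe filter, variance model, array weights and pairing, and left out each heart.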

Additional observations from a re-analysis of the deposited data

How the results depend on the processing

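Pdk1, Pdk2, Pdk3, Pdk4 and the brighter Pdhb probe kept their direction and their side of the threshold under all 17 alternatives. Pdha1 lost its call without normalization between arrays (log2 fold change -0.78, adjusted p = 0.0643). Its change was larger there than the -0.57 as processed, but that fit gave each tested member probe the same SE of 0.30, against 0.12 for Pdha1 as processed. Dlat was called with no background correction (-0.39), with offset 50 (-0.43), with detection on all 6 arrays or a detection p under 0.01 (-0.44 in each), with an intensity trend and robust fit (-0.44) and with array weights (-0.44). The count of differentially expressed probes, 3567, was 1897 without normalization between arrays and 2239 to 3714 with a heart left out, lowest without hSRY-OFF replicate 1. The share of calls that were higher was 50.1%, and it was 38.5% without normalization and 65.7% with scaling to the median of detected probes. Without normalization the median of all probes was -0.12 on the log2 scale, against which Pdha1 and the other members are to be read. The hearts' replicate numbers were not taken as pairs, since same-numbered hearts deviated with correlations of -0.0248, 0.0375 and -0.0655. With them as a replicate block, 2842 probes and 4 member probes were called, and among members the block ended only the call of the dimmer Pdhb probe (adjusted p = 0.0651). Of the listed genes named, Foxo1, never called, changed sign without normalization (-0.047), without hSRY-OFF replicate 2 and without hSRY-ON replicate 2, and ranged from -0.024 to 0.11 with a heart left out. Of 238 list counts, 35 moved by over 1.5 times and 0 reversed, and of 66 differences between kinases, 2 moved and 0 reversed. With no probe filter, Pdhx read 0.18 ± 0.14 (SE; adjusted p = 0.521) on arrays that did not detect it. The causes of these shifts were not tested.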
